A study of Mus musculus with 8 samples.

Results

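The narrowest peaks of an ATAC-seq table of mouse macrophages were taken by their width alone. They are the 3404 peaks whose end minus start plus 1 was 200 bp, out of 74207 peaks, or 4.59% of the peaks and 1.96% of the length they cover. Accessibility was measured in bone marrow-derived macrophages of WT C57Bl/6 mice that had been grown in CMG media with FBS, so strain, genotype and culture were shared by all groups; age and sex were not used here. Cells of 2 mice were each left unstimulated, given 1 µM fenoterol, given 100 ng/mL LPS, or given fenoterol followed by LPS, which made 4 groups of 2 libraries. Fenoterol alone lasted 15 min and LPS alone 1 h. Cells given both received fenoterol for 15 min before the 1 h of LPS, so the interval from fenoterol to harvest was not the same in the groups that received it.

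In ATAC-seq the Tn5 transposase cuts and tags DNA where nucleosomes leave it exposed, so a local excess of reads marks an accessible region such as a promoter or an enhancer. LPS, a component of the outer membrane of Gram-negative bacteria, is sensed by macrophages through TLR4 and sets off NF-κB and MAPK signalling. Fenoterol activates the β2 adrenergic receptor, which raises cAMP. Peak callers join neighbouring enriched positions and report no region below a minimum length. The reference used here was of another build than the mm9 coordinates of the peaks, so the peaks are named by position, and no gene, sequence or macrophage marker was assigned.

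The value of a peak in a library was its RPKM, the reads per kilobase of peak, scaled to the reads in peaks of the library. These values were whole multiples of a fixed step in every library, which allowed the reads in each peak to be recovered. The libraries held 3164446 to 4040292 reads in peaks, except that of unstimulated cells from mouse 1, which held 1426873. Peaks without a read appear to have been entered as 1 read: the totals exceeded the scaling by 1598 reads in that shallow library and by 20 to 202 reads elsewhere. A value of 1 read is therefore a floor, below which no lower value is listed. At a single peak it does not show that a read was seen. Peaks at 1 read numbered 5036 in the shallow library and 78 to 770 elsewhere, so the excess covers a minority of them. Which of them were filled in cannot be told.

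The width of 200 bp stood apart from its neighbours. It held 3404 peaks, whereas each width from 201 to 210 bp held 110 to 194, and the next most frequent width, 391 bp, held 482. Over the 8 libraries the 200 bp peaks had a median of 11.0 scaled RPKM (quartiles 9.08 and 13.4, range 1.82 to 66.6), against 16.9 for all peaks. A mean of at least 20 scaled RPKM was reached by 196 of them and a mean of at least 40 by 12. The 740 peaks of 201 to 205 bp, just outside the rule, had a median of 12.2 scaled RPKM.

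In every library most 200 bp peaks rested on fewer than 10 reads. Their median was 2 reads in unstimulated cells of mouse 1 (exact 95% Poisson interval 0.242 to 7.22) and 9 in those of mouse 2 (4.12 to 17.1). It was 7 and 9 reads with fenoterol, 8 and 8 with LPS, and 9 and 8 with fenoterol+LPS for mice 1 and 2. These intervals cover counting error only. At least 10 reads were present at 1.59% of the 200 bp peaks in the shallow library and at 25.7% to 49.6% in the other 7, and the whole set took only 19 different read values in the first and 34 to 42 in the others.

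**Figure D1:**
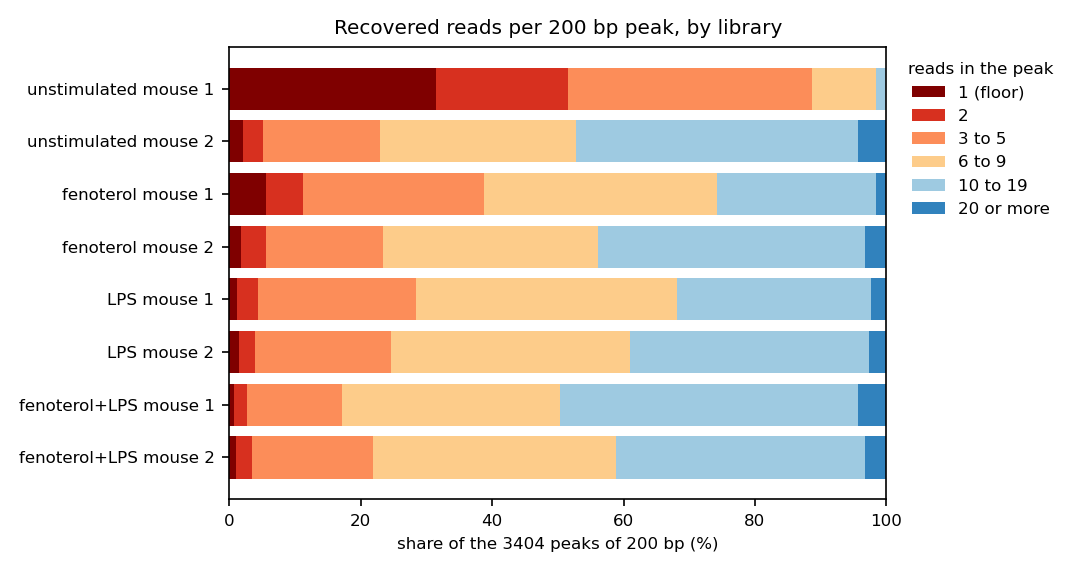
Stacked bars show, for each of the 8 libraries, the share (%) of the 3404 peaks of 200 bp that held 1, 2, 3 to 5, 6 to 9, 10 to 19, or 20 or more recovered reads. The floor of 1 read took 31.4% of the peaks in unstimulated cells of mouse 1 and at most 5.61% in any other library.

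Levels were compared as scaled RPKM, the deposited value divided by a size factor of the library. The median level at 200 bp was 7.50 in unstimulated cells of mouse 1 and 10.9 in those of mouse 2, 11.0 and 11.6 with fenoterol, 11.4 and 10.9 with LPS, and 11.4 and 11.2 with fenoterol+LPS. The shallow library was lowest, the other 7 lay close together, and unstimulated mouse 2 was just below the rest of those. One read over 200 bp was worth 3.53 RPKM in the shallow library and 1.24 to 1.59 RPKM in the others. Over all peaks the medians were 16.9 to 18.1 scaled RPKM, but the size factors were set over all peaks and draw those medians together. As deposited, the median over all peaks was 15.9 RPKM in the shallow library and 17.2 to 18.4 in the others. The deposited medians at 200 bp were 7.05 RPKM in the shallow library and 11.1 to 12.0 in the others.

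The share of a library's reads in peaks that fell in 200 bp peaks was 0.708% and 0.813% in unstimulated cells of mice 1 and 2. It was 0.777% and 0.840% with fenoterol, 0.797% and 0.837% with LPS, and 0.873% and 0.880% with fenoterol+LPS. Both fenoterol+LPS libraries were above the other 6. They were also highest at 201 to 250 bp (2.22% and 2.21%) and at 251 to 400 bp (14.3% and 14.2%). This was not so at 401 to 999 bp, and at 1000 bp or more they were the lowest (19.9% and 20.1%). The group with the highest mean level was fenoterol+LPS at 1157 of the 200 bp peaks (34.0%), fenoterol at 852 (25.03%), unstimulated at 743 (21.8%) and LPS at 652 (19.2%). Over all peaks these shares were 28.1%, 23.2%, 30.2% and 18.5% in the same order. No test was made of these shares, and in bulk cells a wider opening in each cell and an opening in more cells cannot be told apart.

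The floor of 1 read was reached more often at narrow peaks, those of 200 bp among them, than at wide ones. Unstimulated cells of mouse 1 had 1070 of the 3404 peaks at 1 read (31.4%), and those of mouse 2 had 72 (2.12%). Fenoterol libraries had 191 (5.61%) and 64 (1.88%), LPS libraries 42 (1.23%) and 49 (1.44%), and fenoterol+LPS libraries 28 (0.823%) and 34 (0.999%). The libraries without LPS were each above those with LPS, and the highest shares were those of the 2 libraries with the fewest reads. Peaks of 201 to 205 bp were close to this, at 26.1% and 2.16% in unstimulated cells, 4.59% and 1.62% with fenoterol, 1.35% and 0.811% with LPS, and 0.676% and 0.811% with fenoterol+LPS. Over all peaks wider than 200 bp the share was 5.60% in the shallow library and 0.0706% to 0.818% in the other 7.

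With 4.59% of the peaks, the 200 bp class supplied 1550 of the 6756 values at 1 read (22.9%). Of its own 27232 values, 5.69% were at 1 read, against 1.14% over all peaks. A value of 1 read in at least 1 library occurred at 1200 of the 200 bp peaks (35.3%) and at 7.55% of all peaks. At 829 of these 1200 the only such value was that of unstimulated mouse 1. Leaving that library aside, 371 (10.9%) had a value at 1 read, against 1.81% of all peaks.

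Most affected peaks were at the floor in 1 library (939 peaks) or in 2 (197 peaks). A further 48 were at it in 3 libraries, 10 in 4, 4 in 5, 1 in 6 and 1 in 7, and no 200 bp peak was at it in all 8. Both mice of a group were at 1 read at 49 peaks in unstimulated cells, at 25 with fenoterol, at 7 with LPS and at 2 with fenoterol+LPS. Peaks of 1000 bp or more had no value at 1 read in any library.

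**Figure D2:**
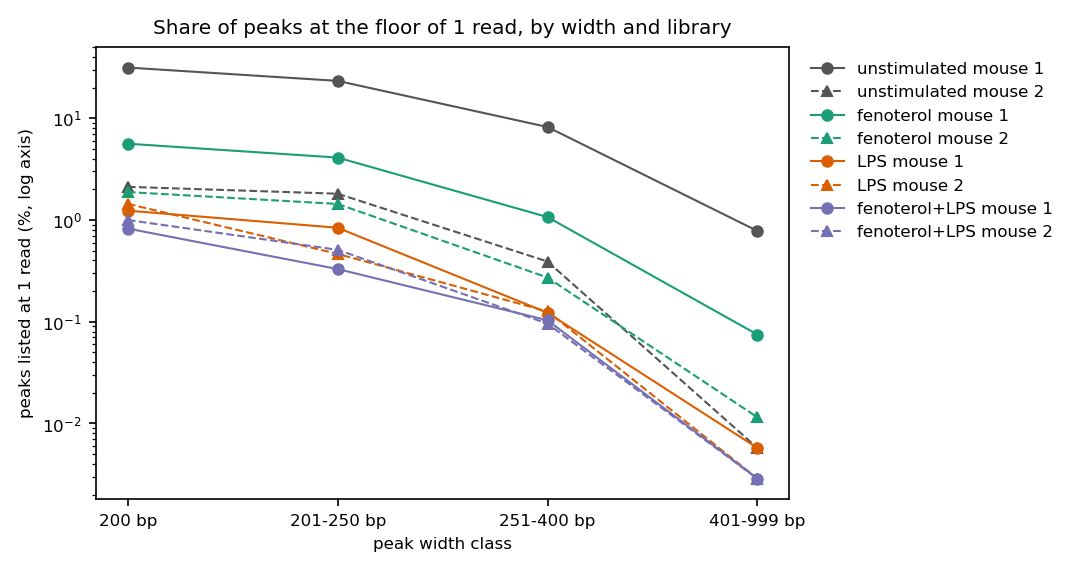
Lines show the share (%, log axis) of peaks listed at 1 read in each library against peak width, with circles and solid lines for mouse 1 and triangles and dashed lines for mouse 2. In unstimulated cells of mouse 1 the share went from 31.4% at 200 bp to 0.780% at 401 to 999 bp; peaks of 1000 bp or more had none and are not drawn.

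The tallest and the lowest members show the span of the class. The peak at chr1:46906742-46906941 held 52.5 and 50.7 scaled RPKM in unstimulated cells of mice 1 and 2, 70.9 and 74.9 with fenoterol, 65.4 and 66.7 with LPS, and 77.4 and 74.2 with fenoterol+LPS, from 14 to 61 reads. Both unstimulated libraries were lowest and did not overlap the others, but its change with LPS (log2 0.33 on the log2(scaled RPKM + 4) scale, adjusted p = 0.121 by limma-trend) did not pass. The lowest, chrX:72957246-72957445, was listed at 1 read in 7 libraries and at 2 reads in fenoterol+LPS of mouse 1. Its scaled RPKM went from 1.21 in unstimulated mouse 2 to 3.75 in unstimulated mouse 1 on the same single read, so those values differ by the scaling of the library alone.

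The 2 mice of a group ordered the 200 bp peaks only loosely. Across the 3404 peaks the correlation of log2(scaled RPKM + 4) between mice was 0.458 in unstimulated cells, 0.538 with fenoterol, 0.503 with LPS and 0.511 with fenoterol+LPS. Over all 74207 peaks it was 0.867 to 0.903, and over the 3217 peaks of 1000 bp or more 0.966 to 0.982. The peaks of a library share its depth and the span of levels is narrower at 200 bp, so these are descriptions. Between the mice of a group the chi-square of recovered reads per degree of freedom, where 1 is counting error alone, was 0.983, 1.19, 1.06 and 1.07 in the same order of groups over 200 bp peaks with at least 10 reads in the pair, and 2.66, 1.45, 0.80 and 0.901 over peaks of 1000 bp or more. At the few reads of a 200 bp peak this measure can show little beyond counting error. At the wide peaks it was above 1 in unstimulated and fenoterol cells and below 1 in the groups with LPS. Values below 1 are lower than counting error alone gives, so 1 is an uncertain baseline. The measure uses library totals and so also holds shifts between width classes. Wide peaks took 22.8% of the reads in unstimulated mouse 1 and 20.5% in unstimulated mouse 2. The libraries came from different animals per the labels and were counted separately.

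Comparisons between groups were made with limma-trend on log2(scaled RPKM + 4), fitted over all peaks with the lowest 10% by mean RPKM left out, and rose or fell is written of peaks with an adjusted p under 0.05. Each group had 2 mice. A p-value reflects how much the mice differed within all 4 groups, moderated over peaks, and not the spread of the compared groups alone. The filter left in 2303 of the 3404 peaks of 200 bp (67.7%), 78.0% of those of 201 to 205 bp, 91.1% of all wider peaks and 100% of peaks of 1000 bp or more. Its limit of 9.71 RPKM stood for 2.76 reads over 200 bp in the shallow library and 6.11 to 7.80 in the others, but for 13.8 and 30.7 to 39.2 over 1000 bp. Of the 1101 left out, 656 (59.6%) were at 1 read in unstimulated mouse 1, as were 414 (18.0%) of the 2303 tested. A peak low in one group passed this filter only if it was higher in another, so counts among the tested are given with the counts without a filter.

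The filter parted peaks with like values. One of the 3 just inside was chr1:24795234-24795433, with 1 and 3 reads in unstimulated cells and 14 and 14 with LPS. One of the 3 just outside was chr6:129516075-129516274, with 2 and 2 reads in unstimulated cells and 14 and 14 with LPS. The first entered the test and the second did not. The pseudocount of 4 RPKM also weighed unequally, standing for 1.13 reads over 200 bp in the shallow library and 2.52 to 3.22 in the others. Over 1000 bp it stood for 5.70 and 12.6 to 16.1 reads. Log2 changes on this scale are smaller than the ratios of the levels, most of all at low peaks.

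With LPS for 1 h more 200 bp peaks rose than fell, except under quantile normalization, which gave 80 risen and 83 fallen, and without LPS mouse 2, which gave 16 and 18. Against unstimulated cells 109 of the 2303 tested rose (4.73%) and 54 fell (2.34%), where 6.53% of all tested peaks rose and 3.54% fell. Both shares were thus below those of the table as a whole. Peaks of 201 to 205 bp rose at 5.89% and fell at 3.29%. Those of 1000 bp or more rose at 2.83% and fell at 2.58%, so a low share of rises was not particular to 200 bp. Without a filter 143 of the 3404 rose (4.20%, against 6.34% of all) and 61 fell (1.79%, against 3.18%). Voom on recovered reads called 74 risen (3.21%, against 7.16%) and 18 fallen (0.782%, against 4.63%). It shared 67 of the 109 risen (61.5%, against 89.0% of all risen peaks) and 16 of the 54 fallen (29.6%, against 83.7%).

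The called 200 bp peaks moved between levels on either side of the class median of 11.0 scaled RPKM. The median of the risen went from 5.56 to 20.2 scaled RPKM and that of the fallen from 24.9 to 10.5. Their median log2 changes were 1.22 and -0.999, against 1.09 and -0.70 for all peaks called. A change of at least 2-fold on that scale was shown by 88 of the 109 risen (80.7%) and 27 of the 54 fallen (50.0%). These sizes come from the contrast that made the calls. In unstimulated mouse 1, 66 of the 109 risen (60.6%) were at 1 read. The share was 18.0% among the tested 200 bp peaks and 13.0% among all risen peaks, and none of the 54 fallen was at 1 read. That library is a control of this contrast, so the calls themselves favour low values there among the risen and high values among the fallen.

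The counts leaned on single libraries. The shares over all peaks under these settings are not given here, so this is not shown to be particular to 200 bp peaks. Leaving out unstimulated mouse 1 gave 74 risen and 22 fallen, of which 57 and 16 were among the 109 and 54. Leaving out unstimulated mouse 2 gave 253 and 126, leaving out LPS mouse 1 gave 35 and 20, and leaving out LPS mouse 2 gave 16 and 18. A filter on mean reads in place of mean RPKM kept 938 peaks and called 67 and 39. Over every alternative that tested them, 11 of the 109 and 2 of the 54 stayed past the threshold, and none turned its direction.

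Within the mice, the log2 change with LPS correlated at 0.214 across the 2303 tested 200 bp peaks, against 0.492 across 64483 wider ones and 0.625 across 3217 of 1000 bp or more. Changes in the 2 mice use separate libraries, but the depth gap between unstimulated libraries enters the first mouse only. At least 2-fold higher in both mice were 49 peaks (2.13%, against 2.36% of all tested), 3 were at least 2-fold lower in both (0.130%, against 0.189%), and 4 went 2-fold in opposite ways.

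**Figure D3:**
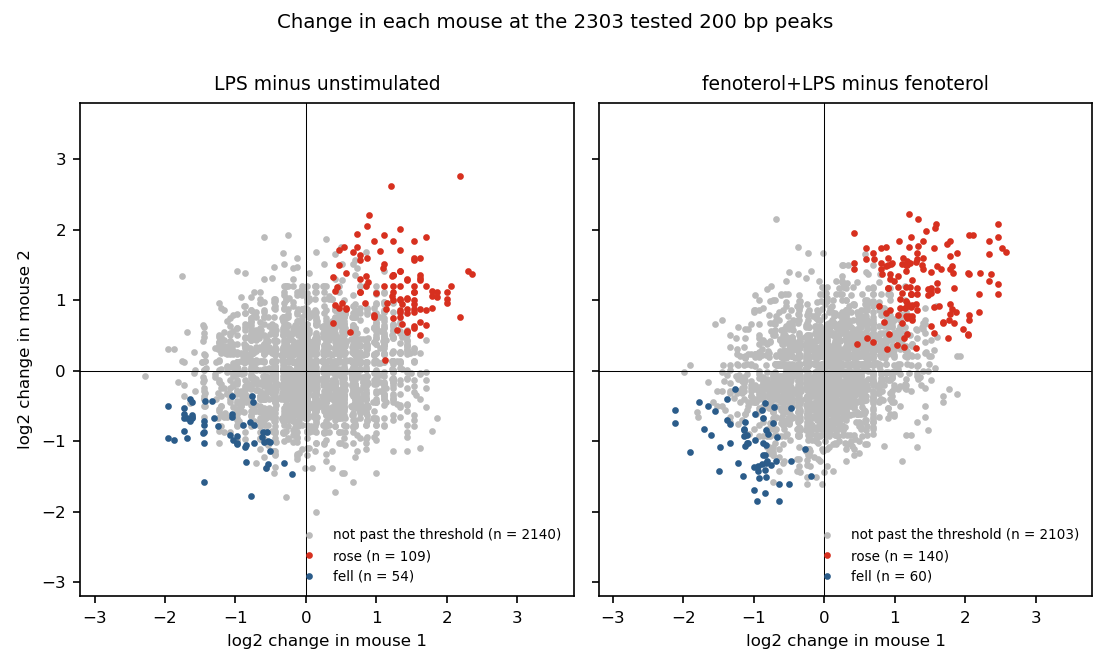
Each point is 1 of the 2303 tested 200 bp peaks, placed by its change on the log2(scaled RPKM + 4) scale in mouse 1 (x) and mouse 2 (y), for LPS minus unstimulated (left) and fenoterol+LPS minus fenoterol (right). The 109 risen and 54 fallen on the left, and 140 and 60 on the right, lie in the corners where both mice moved the same way.

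The largest rise with LPS was at chr5:68032990-68033189. It held 3.75 and 1.21 scaled RPKM in unstimulated cells of mice 1 and 2, 4.73 and 6.45 with fenoterol, 31.3 and 31.3 with LPS, and 17.8 and 29.4 with fenoterol+LPS. Both unstimulated values were at the floor, against 22 and 23 reads with LPS, and the libraries with and without LPS did not overlap. The log2 change was 2.47 (SE 0.32, limma-trend adjusted p = 4.51e-05). The unstimulated reads may be none, and its size went from 1.19 with a pseudocount of 20 RPKM to 3.41 with one of 0.8 RPKM, and was 3.14 with 1 read set to 0. Every alternative called it.

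At chr1:151687577-151687776, the levels were 15.0 and 2.41 scaled RPKM in unstimulated cells, 12.6 and 15.5 with fenoterol, 39.8 and 35.4 with LPS, and 34.3 and 29.4 with fenoterol+LPS. The libraries with LPS were all above those without it, and the unstimulated mice differed from each other on 4 and 2 reads. Its log2 change with LPS was 1.91 (SE 0.32, limma-trend adjusted p = 0.000556). The peak at chr10:114687024-114687223 had 3.75 and 9.66 scaled RPKM in unstimulated cells, 12.6 and 14.2 with fenoterol, 35.5 and 31.3 with LPS, and 39.4 and 47.6 with fenoterol+LPS. Again no library with LPS overlapped one without it, and the fenoterol libraries lay above the unstimulated ones. Its log2 change with LPS was 1.86 (SE 0.24, limma-trend adjusted p = 4.27e-05).

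The peak at chr18:5809488-5809687 had 3.75 and 8.45 scaled RPKM in unstimulated cells, 6.31 and 3.87 with fenoterol, 28.4 and 24.5 with LPS, and 26.7 and 28.0 with fenoterol+LPS. The LPS and fenoterol+LPS libraries lay together and far above the rest (log2 change with LPS 1.63, SE 0.29, limma-trend adjusted p = 0.00108). This peak and the 3 described before it were the 4 of the 10 largest rises that every alternative called. The other 6 changed by log2 1.57 to 1.85. Of all 10, 9 were at 1 read in unstimulated mouse 1, 10 were called by voom on recovered reads, and 5 no longer passed without LPS mouse 2.

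The 10 largest falls had 6.13 to 11.6 mean reads over the libraries and the 10 largest rises 6.88 to 17.6, whereas over all called 200 bp peaks the median was 10.7 for the 54 fallen and 9.5 for the 109 risen. At chr9:22203555-22203754 the levels were 22.5 and 12.1 scaled RPKM in unstimulated cells, 9.46 and 10.3 with fenoterol, 5.69 and 1.36 with LPS, and 15.2 and 14.0 with fenoterol+LPS. The LPS libraries were lowest, on 4 reads and 1 read, and the unstimulated values stood on 6 and 10 reads. The log2 change with LPS was -1.52 (SE 0.36, limma-trend adjusted p = 0.00887), and without unstimulated mouse 1 or LPS mouse 2 it did not pass. At chr12:112741368-112741567 the levels were 22.5 and 16.9 scaled RPKM in unstimulated cells, 12.6 and 10.3 with fenoterol, 2.84 and 6.81 with LPS, and 7.62 and 5.60 with fenoterol+LPS. Unstimulated libraries were highest and all 4 libraries with LPS were below those without it (log2 change -1.45, SE 0.34, limma-trend adjusted p = 0.00940, lost without unstimulated mouse 1 or LPS mouse 1).

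The best-read of the 10 largest falls lay at chr12:92974101-92974300, with 7 and 24 reads in unstimulated cells. Its levels were 26.3 and 29.0 scaled RPKM there, 23.6 and 14.2 with fenoterol, 7.11 and 12.3 with LPS, and 17.8 and 11.2 with fenoterol+LPS. The LPS and unstimulated libraries did not overlap (log2 change -1.23, SE 0.27, limma-trend adjusted p = 0.00537, lost without LPS mouse 1). It was the only one of the 10 that still passed without unstimulated mouse 1. The 10 falls ranged from log2 -1.18 to -1.52, 8 were called by voom, 8 were not tested under a filter on mean reads, and none was called in every alternative.

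**Figure D4:**
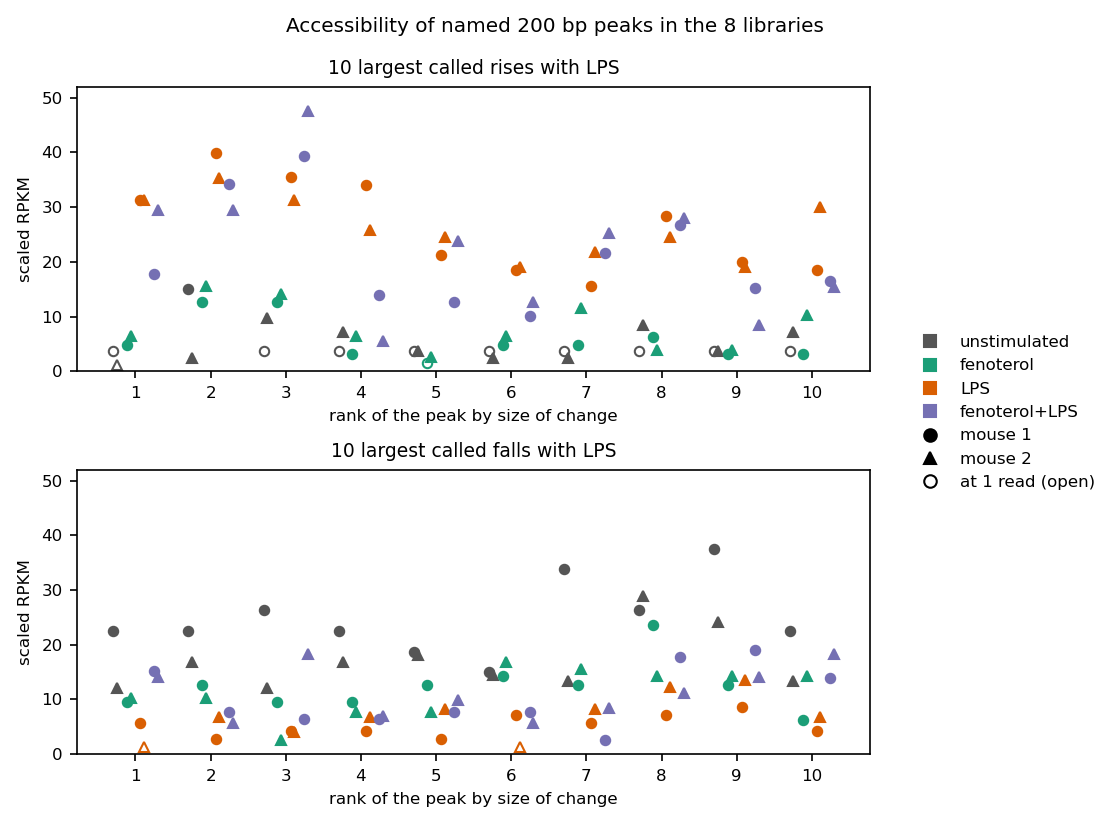
Points show scaled RPKM in the 8 libraries at the 10 largest called rises (top) and 10 largest called falls (bottom) with LPS among 200 bp peaks, circles for mouse 1, triangles for mouse 2, and open symbols for values at 1 read. At 9 of the 10 rises the unstimulated value of mouse 1 is open, and among the 10 falls the open symbols are 2 LPS values of mouse 2.

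Between fenoterol alone and fenoterol+LPS, 200 of the 200 bp peaks were called. The time from fenoterol to harvest also differed between these groups, so its part cannot be told apart from that of LPS. Against fenoterol alone, 140 of the 2303 tested rose with fenoterol+LPS (6.08%) and 60 fell (2.61%). Of all tested peaks 9.43% rose and 4.32% fell. Peaks of 201 to 205 bp rose at 11.1% and fell at 2.43%, and those of 1000 bp or more at 3.67% and 2.02%. Without a filter 274 of the 3404 rose (8.05%, against 10.4% of all) and 82 fell (2.41%, against 4.13%). Voom on recovered reads called 130 (5.64%) and 42 (1.82%), against 12.1% and 7.12% of all peaks, and shared 119 of the 140 and 38 of the 60. Quantile normalization gave 136 risen and 120 fallen. Neither group compared here held the shallow library, which still entered through the filter and the spread estimated over all 8 libraries.

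The risen went from a median of 6.24 to 21.1 scaled RPKM and the fallen from 19.8 to 7.81. A fenoterol value at 1 read was present at 27 of the 140 risen (19.3%), against 2.51% of all peaks risen in this comparison. The fenoterol values also took part in these calls. Without fenoterol mouse 1, the shallower of the pair, 58 rose and 15 fell, and without fenoterol mouse 2 the counts were 125 and 33. Without fenoterol+LPS mouse 1 the counts were 59 and 34, and without fenoterol+LPS mouse 2 they were 52 and 26. Leaving out an unstimulated library raised them, to 203 and 98 without unstimulated mouse 1 and to 205 and 100 without unstimulated mouse 2, while leaving out an LPS library gave 122 and 47 (mouse 1) or 123 and 47 (mouse 2). Every alternative that tested them called 26 of the 140 and 6 of the 60. Between mice the log2 change correlated at 0.420 across the 2303 tested 200 bp peaks, against 0.676 across wider ones. At least 2-fold higher in both mice were 71 (3.08%, against 3.72% of all tested), and 10 were lower in both (0.434%, against 0.286%).

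The largest of these rises was at chr10:39819162-39819361. It had 11.3 and 4.83 scaled RPKM in unstimulated cells, 1.58 and 3.87 with fenoterol, 21.3 and 29.9 with LPS, and 26.7 and 29.4 with fenoterol+LPS. The fenoterol libraries were lowest, on 1 and 3 reads, and libraries with and without LPS did not overlap. The log2 change was 2.27 (SE 0.32, limma-trend adjusted p = 6.63e-05). At chr1:40416630-40416829 the levels were 3.75 and 3.62 scaled RPKM in unstimulated cells, 1.58 and 3.87 with fenoterol, 15.6 and 16.3 with LPS, and 26.7 and 25.2 with fenoterol+LPS. Both fenoterol+LPS libraries were above both LPS libraries there, and all 4 were above the rest. The log2 change against fenoterol was 2.18 (SE 0.33, limma-trend adjusted p = 0.000170), while that against LPS was 0.58 and did not pass (limma-trend adjusted p = 0.825).

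All 5 of the largest rises had fenoterol mouse 1 at 1 read, changed by log2 2.09 to 2.27 and were called in every alternative that tested them. The largest fall, chr8:97325805-97326004, had 7.50 and 14.5 scaled RPKM in unstimulated cells, 20.5 and 14.2 with fenoterol, 7.11 and 6.81 with LPS, and 2.54 and 4.20 with fenoterol+LPS. Fenoterol+LPS was lowest in both mice, on 2 and 3 reads (log2 change -1.53, SE 0.36, limma-trend adjusted p = 0.00696). It and the other 4 largest falls no longer passed without fenoterol mouse 1, and it was also lost without fenoterol+LPS mouse 1.

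The comparisons of LPS with and without fenoterol contrasted different libraries of the same mice, so their calls can be set side by side. Both shared the filter and the spread estimated over all 8 libraries, and the comparison with fenoterol also held the longer time after it. Risen in both were 43 peaks of 200 bp, or 39.4% of the 109 and 30.7% of the 140. Over all peaks the shares were 73.4% and 50.9%. Fallen in both were 5, or 9.26% of the 54 and 8.33% of the 60, against 39.5% and 32.4% over all peaks, and none was called in opposite directions. Of the 109, 91 (83.5%) were also higher in both mice when fenoterol came first, as were 31.6% of the tested 200 bp peaks and 95.5% of all risen peaks. Of the 54, 27 (50.0%) were lower in both mice, against 29.7% of the tested 200 bp peaks and 86.5% of all fallen peaks. The median log2 change with fenoterol was 0.77 at the 109 and -0.23 at the 54.

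The share of 200 bp peaks called differed with their mean reads. Among tested peaks with a mean under 8 reads, 5.08% of 827 peaks of 200 bp were called with LPS against unstimulated cells, and 6.31% of 539 wider ones. At 8 to 10 mean reads the shares were 4.73% of 909 and 4.70% of 2641. At 16 to 20 mean reads they were 27.0% of 63 and 8.11% of 6822, and at 20 to 30 they were 20.9% of 43 and 10.2% of 11651. Equal reads mean a higher level over a shorter peak: at 16 to 20 reads the median was 25.5 scaled RPKM at 200 bp and 14.0 at wider peaks. For fenoterol+LPS against fenoterol the shares of 200 bp and wider peaks were 7.74% and 8.35% under 8 reads, 5.83% and 8.03% at 8 to 10, 28.6% and 12.7% at 16 to 20, and 16.3% and 15.3% at 20 to 30. The part of level in these shares was not tested.

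**Figure D5:**
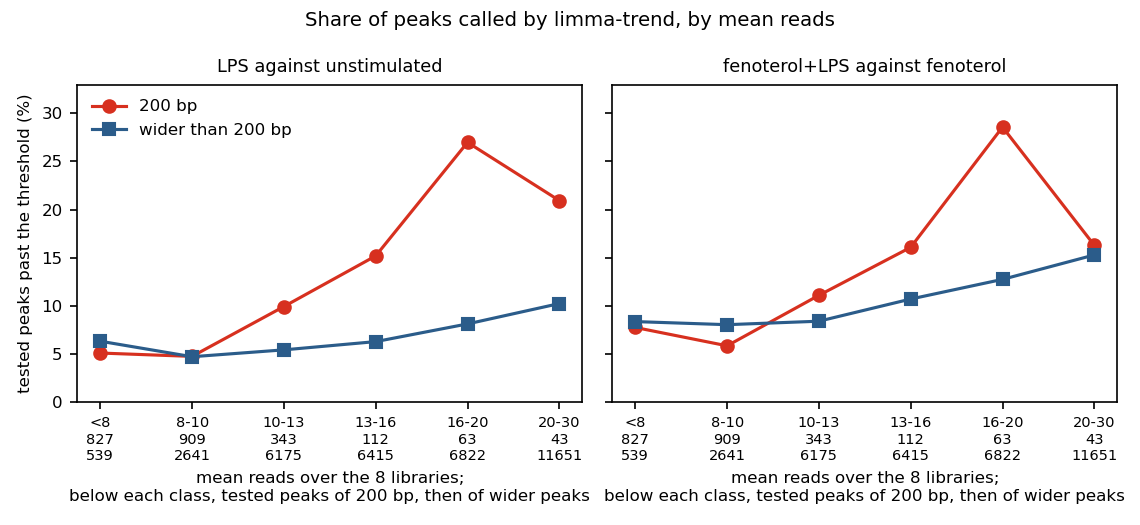
Lines show the share (%) of tested peaks called by limma-trend against their mean reads over the 8 libraries, for 200 bp peaks (circles) and wider peaks (squares), with the number of peaks below each class; the 6 peaks of 200 bp with 30 or more mean reads are not drawn. At 16 to 20 mean reads 27.0% of 200 bp peaks and 8.11% of wider peaks were called with LPS, while at 8 to 10 the shares were 4.73% and 4.70%.

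Fenoterol alone for 15 min called no 200 bp peak. Limma-trend found 0 of 2303 risen or fallen, where 0.00599% of all tested peaks rose and 0.0015% fell. Without a filter it also found 0 of 3404, against 0.00539% and 0.00135% of all peaks, and voom on recovered reads found 0, against 0.0434% and 0.00299%. At an unadjusted p under 0.05 were 303 peaks of 200 bp (13.2%, against 7.44% of all tested) by limma-trend and 112 by voom (4.86%, against 5.59%), so the share lay above that of all peaks by the first and below it by the second. The changes in the 2 mice correlated at -0.0035 across the 2303 peaks, against 0.0452 across wider ones and 0.0120 across those of 1000 bp or more. Without unstimulated mouse 2, which leaves the shallow library as the lone control, 108 rose and 54 fell, and without unstimulated mouse 1 there was 1 peak that rose, chr1:151687577-151687776, whose unstimulated value in mouse 2 (2 reads) was far below that in mouse 1. It is named here after its values were seen.

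The smallest p for a fall was at chr5:42233975-42234174, which had 48.8 and 36.2 scaled RPKM in unstimulated cells, 20.5 and 21.9 with fenoterol, 27.0 and 27.2 with LPS, and 25.4 and 33.6 with fenoterol+LPS. Unstimulated libraries were highest and fenoterol libraries lowest, without overlap (log2 change -0.87, SE 0.17, limma-trend adjusted p = 0.156). That for a rise was at chr15:52965830-52966029, with 7.50 and 14.5 scaled RPKM in unstimulated cells, 28.4 and 21.9 with fenoterol, 27.0 and 23.1 with LPS, and 29.2 and 29.4 with fenoterol+LPS. All treated libraries were above both unstimulated ones (log2 change with fenoterol 0.99, SE 0.22, limma-trend adjusted p = 0.236). Against unstimulated cells its change with LPS passed (log2 0.99, limma-trend adjusted p = 0.00565).

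Fenoterol before LPS, set against LPS alone, also called no 200 bp peak by limma-trend, as it called 0% of all tested peaks. At an unadjusted p under 0.05 were 216 peaks (9.38%, against 6.66% of all tested) by limma-trend and 149 by voom (6.47%, against 9.77%). Voom on recovered reads called 1 risen and 1 fallen, against 0.547% and 0.0494% of all peaks. The risen was chr9:22203555-22203754, the largest fall with LPS, at 5.69 and 1.36 scaled RPKM with LPS and 15.2 and 14.0 with fenoterol+LPS (voom adjusted p = 0.0458). The fallen was chr13:111191792-111191991, with 3.75 and 7.24 scaled RPKM in unstimulated cells, 3.15 and 6.45 with fenoterol, 34.1 and 25.9 with LPS, and 14.0 and 5.60 with fenoterol+LPS (voom adjusted p = 0.0485). LPS raised this peak in both mice, and both fenoterol+LPS libraries were below both LPS libraries. In mouse 2 fenoterol+LPS held 4 reads against 6 in unstimulated cells, and in mouse 1 it held 11 against 1. By limma-trend the change of this peak from LPS to fenoterol+LPS was log2 -1.36 (SE 0.37, adjusted p = 0.435). Leaving out unstimulated mouse 1, or mouse 2, gave 1 risen and 1 fallen by limma-trend, the same pair each time and named here after their values were seen. The risen, chr9:105421922-105422121, had 11.4 and 6.81 scaled RPKM with LPS and 25.4 and 25.2 with fenoterol+LPS, and the fallen, chr13:111734947-111735146, had 45.5 and 44.9 with LPS and 24.1 and 25.2 with fenoterol+LPS.

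The interaction was the change from fenoterol to fenoterol+LPS minus that from unstimulated to LPS, so it also holds the unequal time after fenoterol. It was called at no 200 bp peak by limma-trend or by voom. Limma-trend called 0% of all tested peaks, and voom called 0.0015% as risen and 0.00449% as fallen. By limma-trend 249 peaks (10.8%, against 6.32% of all tested) and by voom 138 (5.99%, against 6.57%) had an unadjusted p under 0.05. The share was again above all peaks by the first and below by the second. The calls with LPS came from the same limma-trend fit, and whether its p-values run low at 200 bp was not tested. The smallest p was at chr1:195231665-195231864, with 15.0 and 19.3 scaled RPKM in unstimulated cells, 7.88 and 10.3 with fenoterol, 8.53 and 13.6 with LPS, and 25.4 and 37.8 with fenoterol+LPS. Fenoterol+LPS was highest without overlap, and each agent alone was below unstimulated cells in both mice (interaction log2 1.93, SE 0.38, limma-trend adjusted p = 0.351). Without unstimulated mouse 2 the interaction was called at 10 peaks as positive and at 10 as negative.

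The 200 bp peaks lay a little farther from other peaks than all wider ones pooled, and nearer than the widest. The median distance to the nearest peak was 5777 bp, against 4863 bp for all wider peaks and 7120 bp for those of 1000 bp or more. A peak within 1 kb was present at 616 (18.1%), against 20.4% and 14.9%. More than 50 kb from any peak were 194 (5.70%), against 3.46% and 2.46%. The nearest was itself a 200 bp peak at 188 (5.52%). Those within 1 kb of another peak had a median of 12.4 scaled RPKM and 75.6% were tested; those at 1 to 10 kb had 11.3 and 71.1%, and those beyond 10 kb had 10.3 and 58.6%.

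The share of tested 200 bp peaks that rose with LPS was lower at greater distances, as it was for wider peaks. Within 1 kb 36 of 466 tested rose (7.73%, against 8.67% of wider peaks), at 1 to 10 kb 51 of 1159 (4.4%, against 7.08%), and beyond 10 kb 22 of 678 (3.24%, against 3.92%). The fallen were 13 (2.79%, against 5.16%), 33 (2.85%, against 3.84%) and 8 (1.18%, against 1.76%). The levels given above were also lower at greater distances, and their part in these shares was not tested. The log2 change with LPS correlated with that of the nearest peak at 0.339 over 429 near 200 bp peaks with a tested neighbour, at 0.197 over 1050 at 1 to 10 kb and at 0.056 over 592 beyond. For wider peaks the values were 0.387, 0.197 and 0.101. Both peaks of a pair share the same libraries. Of 35 near 200 bp peaks that rose and had a tested neighbour, 12 had a neighbour that rose and none a neighbour that fell. Among wider peaks within 1 kb, 330 of 1158 that rose had a neighbour that rose and 6 a neighbour that fell.

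Among chromosomes with over 1000 peaks, the share of 200 bp peaks went from 3.82% on chromosome 11 to 5.29% on chromosome 13. Chromosome Y, with 69 peaks in the table, had 6 of 200 bp (8.70%), of which 1 was tested. With LPS, 14 of 147 tested 200 bp peaks rose on chromosome 10 (9.52%), the highest count, where 7.43% of all tested peaks rose. None of 102 rose on chromosome 17, where 5.79% of all tested peaks did. This pair was picked after the counts were seen.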

How the data were processed

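Libraries were made by Tn5 treatment of crude nuclei with size selection of the amplified DNA on a gel, per the labels' protocols. The submitters' processing notes name cutadapt, Bowtie2, MACS2 and HOMER, without versions, and build mm9. Not given in the sources used here are duplicate removal, a Tn5 shift, and whether peaks were called on pooled or single libraries. The authors deposited 1 RPKM value per peak and library over a shared peak set; every column had a sample (0 without).

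Each RPKM times end minus start gave whole multiples of a step per library (100% within 0.01 read). Whether a read is an end or a fragment is not given. Values were divided by median-ratio size factors (0.940 to 1.04), 4 was added and log2 taken. Peaks with a mean of at least 9.71 RPKM (66786) were fitted by limma-trend (limma version 3.58.1, R 4.3.3; 4 group means over 8 libraries, Benjamini-Hochberg over all tested peaks, threshold 0.05). Tables and figures used Python 3.11.15, pandas 2.3.3, SciPy 1.17.1 and matplotlib 3.10.9. The residual degrees of freedom were 4, against 16.4 from the shared spread (143 in voom), so the spread common to all peaks outweighs that of a single peak. Alternatives were other scalings, pseudocounts (0.8, 20), filters, floors and mean trend, and voom on recovered reads. Others were the mouse as a block, the 4 libraries compared alone, and each library left out. Of these, shares over all peaks are given for voom and for no filter only.

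Libraries of the same number came from the same mouse per the labels, which pairs them; deviations of paired libraries correlated at 0.0231 to 0.0727 over all tested peaks and -0.0248 to 0.0210 over 200 bp peaks. Peaks were named by a rule: among 200 bp peaks, the 10 largest rises and falls with LPS and the 5 with LPS after fenoterol among those called and moving alike in both mice, the 3 smallest p in each direction elsewhere, and the highest, the lowest and those at the filter. The text describes part of those. The members and lists were chosen with earlier results of these data known.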

Additional observations from a re-analysis of the deposited data

How the results depend on the processing

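Depth limited most values: most 200 bp peaks held fewer than 10 reads in a library, and the lone library left by omitting a mouse is assumed to vary like the other groups. With LPS against unstimulated cells 163 peaks of 200 bp were called, against 106 with a filter on mean reads, 108 without a mean trend, 92 by voom on recovered reads, 92 by voom with the replicate block, and 34 to 379 on leaving out each library in turn. For fenoterol+LPS against fenoterol 200 were called, against 356 without a filter, 125 with the lowest 25% left out, 108 with a filter on mean reads, 308 on the 4 libraries compared alone, and 73 to 305 on leaving out each library. For fenoterol against unstimulated cells 0 were called, against 1 (chr1:46906742-46906941) under quantile normalization and 0 to 162 on leaving out each library. For fenoterol+LPS against LPS 0 were called, against 2 by voom, 4 by voom with the replicate block, 10 on the 4 libraries alone, and 0 to 2 on leaving out each library. The interaction gave 0, and 0 to 20 on leaving out each library. The cause of these moves was not tested, except that a stricter filter tests fewer peaks. With the mouse as a replicate block in limma-trend the counts were 188 and 217 for LPS without and with fenoterol and 0 for the other 3. The other alternatives stayed within 1.5 times these counts. For the named peaks, 883 of 963 alternatives kept direction and side of the threshold, 58 lost the call, 22 gained one and 0 turned direction. The 883 include peaks that were not called and stayed so, and thus overstate how well calls held. Every alternative that tested them called 4 of the 10 largest rises with LPS and 0 of the 10 largest falls. With LPS after fenoterol it was 5 of the 5 largest rises and 0 of the 5 largest falls. The share of 200 bp peaks near another peak was 18.1% within 1 kb, 26.6% within 2 kb and 66.0% within 10 kb. A tolerance of 0.05 read changed no value at the floor.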
